A study of Bos taurus with 81 samples.

Results

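The regions described here are the broadest H3K4me3 peaks of the bovine blastocyst. A region was an autosomal peak of 5 kb or more in the first blastocyst H3K4me3 library that overlapped a peak of 5 kb or more in the second. The rule gave 578 regions, which were 1.83% of the 31565 autosomal peaks shared by both blastocyst libraries and 8.62% of their length. The regions were chosen by their widths in these 2 libraries, which are given as a description with no test. Because the regions were chosen where the blastocyst was broad, narrower peaks in other groups are partly built into the choice.

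The study mapped histone marks by CUT&Tag, where an antibody guides a transposase to the mark, and accessible DNA by ATAC-seq, where a free transposase cuts open chromatin. CUT&Tag covered H3K4me3, H3K27ac, H3K27me3 and H3K9me3 with 2 libraries in each of 9 groups, and ATAC-seq covered 3 groups with 3 libraries each. GV were germinal vesicle oocytes taken before maturation. All embryos were produced in vitro from slaughterhouse oocytes. 2C, 4C and 8C were 2-cell, 4-cell and 8-cell embryos collected 32, 44 and 56 h after insemination. 8A were 8-cell embryos of the same age grown with 50 µg/ml α-amanitin, an inhibitor of RNA polymerase II, and all other groups were grown without it. MO were morulae at 122 h and BL were whole blastocysts at 172 h. ICM was the inner cell mass, freed by immunosurgery, and TE was trophectoderm cut away with a scalpel, so the lineages were isolated by different methods. Each library pooled many oocytes or blastomeres, and whole blastocysts contained both lineages in proportions not measured here. The labels do not say that replicates came from separate cultures, so p-values measure only the spread between these libraries, which may be technical.

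H3K4me3 is the histone mark of active and poised promoters, where it usually forms a narrow peak around the transcription start. In many cell types the widest H3K4me3 domains lie over genes that define the identity of the cell and carry H3K27ac, a mark of active promoters and enhancers. Oocytes are known for a different, non-canonical kind of broad H3K4me3. H3K27me3, laid down by the Polycomb complex PRC2, marks repressed developmental genes and can share promoters with H3K4me3 in a bivalent state, while H3K9me3 marks heterochromatin.

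The deposited data are 81 peak lists with 4930009 peaks in all and no library totals, so sequencing depth is unknown. Autosomal H3K4me3 peaks covered 37.7 to 176 Mb per library, and the 8C libraries differed most within a group, at 68.6 and 112.5 Mb. The genes under the peaks and the marker genes of ICM and TE were not analysed here, so the lineage labels were not checked against markers. Positions are on the ARS-UCD1.2 build.

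In the blastocyst the regions had median widths of 6200 and 6250 bp in the 2 libraries, with maxima of 15650 and 17900 bp. Of the 578, 247 were under 6 kb in the first library, 71 reached 8 kb in both libraries and 27 reached 10 kb in both. The rank correlation of the widths between the libraries was 0.778 over the 578 regions, which share the lower limit of 5 kb, and is a description with no test. The limit passed through a dense range of widths, with 26 regions at exactly 5000 bp in the narrower library. Just inside it lay chr2:117958251-117963250, with 5000 and 5200 bp, and chr2:120061551-120066600, with 5050 and 5000 bp. Just outside it lay chr3:23713251-23718200, with 4950 and 5050 bp, and chr5:29692151-29697100, with 4950 and 5100 bp.

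The regions were unevenly spread over the chromosomes. Chromosome 19 held 62 of them, or 0.98 per Mb, against 0.23 per Mb over the autosomes as a whole. Chromosome 18 held 47, or 0.71 per Mb, and chromosome 25 held 30, or 0.71 per Mb. Chromosome 1 held 8, or 0.05 per Mb, and chromosomes 20 and 24 held 4 each. As a share of all H3K4me3 regions on the chromosome, they ranged from 0.672% on chromosome 24 to 3.12% on chromosome 19. Neighbouring regions had a median gap of 850 kb, and 26 gaps were under 10 kb.

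Ranked by the smaller of the 2 widths, the widest region was chr23:9442601-9458250, with 15650 and 15750 bp. It was followed by chr17:60085501-60100850, with 15350 and 15700 bp, chr17:72177901-72192700, with 14800 and 16100 bp, and chr25:38878951-38893400, with 14450 and 14500 bp. The widest peak of the second library, 17900 bp, lay at chr22:59341701-59353800, where the first library had 12100 bp. Of the 10 widest by the smaller width, 3 lay on chromosome 17 and another 3 on chromosome 25. These widest regions had different histories and different lineage patterns, as described below.

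Width was followed as the widest H3K4me3 peak that overlapped a region in each library. The median rose from 1600 ± 141 bp in GV (mean ± SD of the library medians, n = 2) to 1975 ± 35.4 bp in 2C and 1900 ± 70.7 bp in 4C. It was 2925 ± 460 bp in 8C and 4825 ± 460 bp in MO. It reached 6225 ± 35.4 bp in BL, where the regions were chosen. Most regions carried some H3K4me3 long before they were broad. In GV, 555 of 578 (96.0%) had a peak in both libraries, and peaks covered 40.7 ± 3.08% of their summed length. This was not particular to them. Of the shared blastocyst regions of 3 to 5 kb in both libraries, 94.0% had a peak in both GV libraries, with 45.4% of their length covered. All regions that were not broad were at 54.8% and 45.7%.

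**Figure D1:**
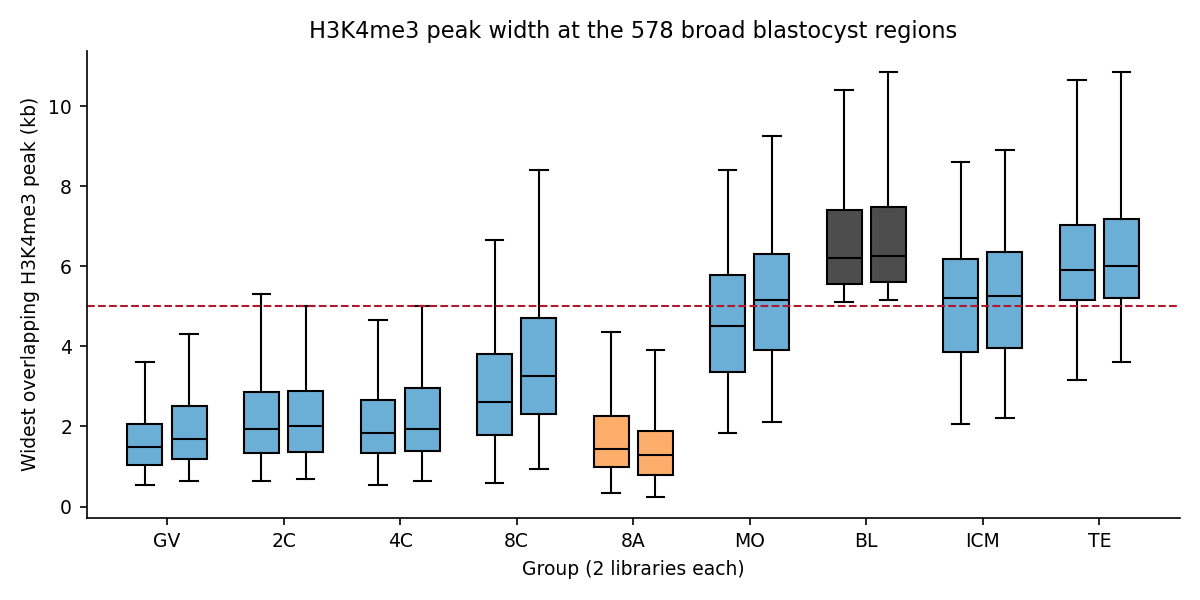
Widest H3K4me3 peak (kb) overlapping each of the 578 regions, 1 box per library, with the median, the quartiles and whiskers from the 5th to the 95th percentile. The dashed line is the 5 kb limit, blastocyst libraries are dark, amanitin libraries are orange, and medians lie near 2 kb up to 4C, at 2600 and 3250 bp in 8C, and at 4500 and 5150 bp in MO.

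A region was called broad in a group when it overlapped a peak of 5 kb or more in both libraries. Of the 578 regions, 329 (56.9%) were first broad in BL and 176 (30.4%) in MO. The 8C stage came first for 46, 4C for 8, 2C for 15 and GV for 4. Of the 329, 206 were broad in no single library of an earlier untreated stage. Over all regions, 4 were broad in GV, 19 in 2C, 17 in 4C, 66 in 8C and 224 in MO. These counts use peaks as deposited. When peaks under 1 kb apart were joined, many more regions were broad in GV, 2C, 4C and 8C, as given in the last section.

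**Figure D2:**
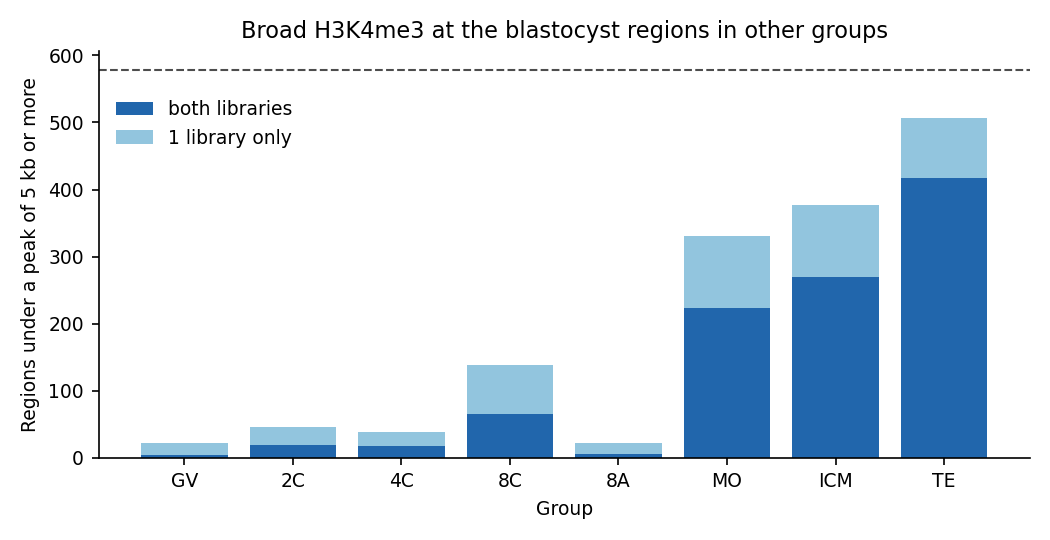
Number of the 578 regions under an H3K4me3 peak of 5 kb or more, in both libraries of a group (dark) or in 1 library only (light). The dashed line marks 578, and the count in both libraries rises from 4 in GV to 66 in 8C and 224 in MO, and is 269 in ICM and 417 in TE.

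Breadth reached early was often lost again. Of the 15 regions first broad in 2C, 2 were broad at every later untreated stage, and of the 46 first broad in 8C, 35 were. Of 17 regions broad in 4C, 13 were broad in 8C and 8 in MO. The region chr22:59366151-59372500 measured 9250 and 9350 bp in 2C and 9350 and 9450 bp in 8C. It fell to 750 and 1950 bp in MO and measured 6350 and 15050 bp in BL.

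Only 2 regions were broad in every untreated group. At chr18:61886851-61898500 the widths were 5550 and 6550 bp in GV, 14050 and 17250 bp in 8C and 11650 and 11550 bp in BL. At chr29:50536151-50547000 they were 5350 and 5150 bp in GV, 7600 and 8500 bp in 8C and 10850 and 11200 bp in BL. Both were broad in both amanitin libraries too, with 6050 and 6350 bp at the first and 5300 and 5500 bp at the second. Another long history was that of chr7:44173251-44184300, which was broad from 4C on, at 11000 and 5450 bp in 4C and 11050 and 11450 bp in BL.

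The rule applied to each group's own lists shows how far the sets of broad regions coincide. Broad GV regions numbered 74, of which 5.41% overlapped a broad blastocyst region, and these covered 0.692% of the 578. Broad 8C regions numbered 340, of which 19.1% overlapped one, matching 11.6% of the 578. Broad MO regions numbered 350, of which 64.0% overlapped one, matching 38.8% of the 578. Most broad domains of oocytes and cleavage embryos thus lay elsewhere, while those of morulae mostly lay at the blastocyst regions.

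The step from 8C to MO was tested on the log2 of width plus 200 bp with limma, across all 22744 shared blastocyst regions that had a peak in at least 2 of the 4 libraries. Values are differences on that scale, which understates the change where a peak is narrow or missing. Of 575 broad regions tested, 139 were wider in MO and 17 narrower at an adjusted p under 0.05, where 17.3% and 7.54% of all tested regions were called in the same directions. All MO values lay above all 8C values at 399 of the 575 and below them at 48, against 44.2% and 22.6% of all tested regions. The median difference was 0.59 over the broad regions and 0.22 over all tested regions. With every list shortened to one covered length the medians were 0.60 and 0.69, so the gap between broad and other regions was not seen on that scale. Leaving out either MO library left 0 calls, with 148 to 267 broad regions at an unadjusted p under 0.05 over all the fits that left out a library, and leaving out the first 8C library left 71.

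Broad H3K4me3 at the 8-cell stage was rarely present with α-amanitin. Of 66 regions broad in 8C, 6 kept a broad peak in each 8A library and 48 had none in either. The median width was 1375 ± 106 bp in 8A (n = 2) against 2925 ± 460 bp in 8C. Among the regions with the largest loss, chr29:50567201-50572950 measured 13450 and 15850 bp in 8C and 2250 and 1450 bp in 8A. At chr18:56502151-56508150 the widths were 10300 and 12100 bp in 8C and 2850 and 2100 bp in 8A. At chr19:52700501-52705850 they were 11000 and 12200 bp in 8C and 3100 and 1100 bp in 8A. These 3 regions were picked for a large loss in 8A, so the gap between their 8C and 8A widths is built into the choice.

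The same difference was general to the H3K4me3 regions. At 478 of 563 broad regions tested both 8A widths lay below both 8C widths, and at 0 both lay above, against 72.7% and 0.628% of all 19426 regions tested. The median difference was -0.96 over the broad regions and -0.87 over all. No region passed limma's adjusted p under 0.05 in either direction (0 of 19426, a background of 0%), while 291 broad regions had an unadjusted p under 0.05. A limma fit that took its spread from all groups called 362 of the 563 (64.3%) narrower in 8A, against 44.3% of all tested regions. A fit without the filter on missing peaks called 192 of 578 (33.2%), against 12.5%. Autosomal peaks covered 60.4 and 52.2 Mb in 8A and 68.6 and 112.5 Mb in 8C, and with lists shortened to one length the median was -0.93 over the broad regions and -0.70 over all.

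The regions were broad in TE more often than in ICM. In both libraries, 417 were broad in TE and 269 in ICM, of which 212 were broad in both lineages. TE alone held 205, of which 143 were broad in no ICM library, and ICM alone held 57, of which 27 were broad in no TE library. The remaining 104 were broad in neither lineage by this rule. The excess in TE was not particular to these regions. Of the 30987 other regions, 333 were broad in TE and 160 in ICM. Of the 2327 regions of 3 to 5 kb, 55 and 19 were. By each lineage's own lists, 574 regions were broad in TE and 340 in ICM. The median width was 5950 ± 70.7 bp in TE and 5225 ± 35.4 bp in ICM (n = 2 each).

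**Figure D3:**
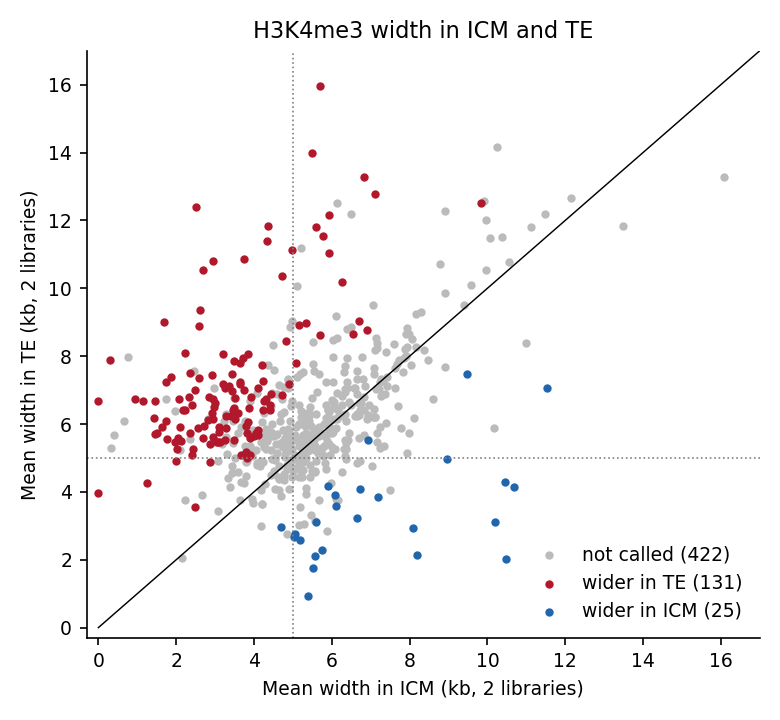
Mean H3K4me3 width (kb, 2 libraries each) of the 578 regions in ICM and in TE. Red regions were called wider in TE (131), blue ones wider in ICM (25) and grey ones were not called (422) by limma at an adjusted p under 0.05, and dotted lines mark 5 kb and the diagonal marks equal width.

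In the limma fit over all 26130 tested regions, 131 of the 578 were wider in TE and 25 wider in ICM, where 19.5% and 5.47% of all tested regions were called. Both TE widths lay above both ICM widths at 295, and below at 93, against 43.3% and 16.3% of all tested regions. The median difference of 0.17 over the broad regions was the same as over all tested regions, and regions of 3 to 5 kb had a median of 0.09. In this fit 22.7% of the broad regions were called wider in TE and 4.33% wider in ICM, close to those shares of all tested regions. ICM lists covered 37.7 and 38.5 Mb and TE lists 46.7 and 44.9 Mb. With lists shortened to one length, 130 broad regions (22.5%) were called wider in TE and 25 (4.33%) in ICM, against 10.6% and 15.9% of all 21114 regions then tested. The median stayed at 0.17 over the broad regions and fell to 0.04 over all. Over all tested regions the split turned from 5086 wider and 1430 narrower in TE to 2230 and 3349. Leaving out any 1 of the 4 libraries left 0 calls in the limma fit, with 185 to 245 broad regions at an unadjusted p under 0.05.

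ICM and TE also differed in how a region was divided into peaks. A single peak lay over 329 and 315 of the 578 regions in the ICM libraries and over 384 and 437 in the TE libraries. Counting bases under peaks in place of the widest peak, the median difference was 0.08 over the broad regions and over all. Bases were counted inside the region only, while a peak's width includes any part outside it. The share of each in the smaller difference was not tested. By that measure 109 broad regions (18.9%) were called higher in TE and 21 (3.63%) in ICM, against 19.8% and 5.64% of all tested regions. At chr19:20141901-20153600 the widest peak measured 5750 and 5450 bp in ICM and 11900 and 11700 bp in TE, a difference of 1.05 (SE 0.06, adjusted p = 0.00495). There the difference in bases under peaks was 0.09.

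Regions with far wider peaks in TE included the first in rank by blastocyst width. At chr23:9442601-9458250 the widths were 5450 and 5950 bp in ICM and 15900 and 16000 bp in TE, a difference of 1.45 (SE 0.07, adjusted p = 0.00495). A pair of regions on chromosome 3 lay close together and were both wider in TE. At chr3:16763951-16776750 ICM had 7150 and 6500 bp and TE had 13350 and 13200 bp. At chr3:16828451-16833850 no H3K4me3 peak was called in either ICM library, and TE had 5700 and 7650 bp. At chr6:45176151-45183650 ICM had no peak and 600 bp, and TE had 8200 and 7600 bp.

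The region chr26:20868251-20873500 was new in the blastocyst. It had no H3K4me3 peak in any library of GV, 2C, 4C, 8C, 8A or MO and measured 5250 and 5400 bp in BL. ICM had no peak and 650 bp there, and TE had 5400 and 5200 bp, a difference that missed the threshold (3.74, SE 0.85, adjusted p = 0.0752). The region chr17:72908901-72914350 likewise had no peak in MO and measured 5450 and 5300 bp in BL, with no peak and 800 bp in ICM and 5500 and 5850 bp in TE.

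Regions wider in ICM were fewer. At chr2:104618951-104624350 both ICM libraries gave 5400 bp and the TE libraries 750 and 1100 bp, a difference of -2.33 (SE 0.19, adjusted p = 0.00834). At chr10:69217851-69227800 the widths were 10200 and 10750 bp in ICM and 2100 and 1950 bp in TE, a difference of -2.26 (SE 0.07, adjusted p = 0.00495). Both were picked from regions whose ICM and TE libraries did not overlap, so that separation is built into the choice. At chr19:54670901-54677600 ICM had 8500 and 7900 bp and TE had 2350 and 1950 bp. At chr22:51324901-51330850 ICM had 11450 and 8950 bp and TE had 3600 and 2650 bp.

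Some of the widest regions were broad in both lineages. At chr25:38878951-38893400 ICM had 15500 and 16650 bp and TE had 11950 and 14600 bp, a difference of -0.28 (SE 0.13, adjusted p = 0.27). At chr25:2431051-2443050 ICM had 10900 and 11350 bp and TE 11350 and 12250 bp.

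Breadth in the morula went with breadth in ICM. Of the 224 regions broad in MO, 173 (77.2%) were broad in ICM and 177 (79.0%) in TE. Of the 354 not broad in MO, 96 (27.1%) were broad in ICM and 240 (67.8%) in TE. These shares describe regions that all share the blastocyst rule, and their difference was not tested.

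H3K27ac covered the broad regions increasingly from the 4-cell stage. Peaks covered 42.5 ± 1.46% of their summed length in GV, 22.3 ± 3.53% in 2C and 13.4 ± 0.586% in 4C (SD, n = 2). Cover was 39.9 ± 2.08% in 8C, 66.9 ± 3.72% in MO and 71.3 ± 0.483% in BL. The rise was general to the H3K4me3 regions. From 4C to 8C and MO, regions of 3 to 5 kb went from 15.5% to 46.9% and 59.2%. All 30987 other shared blastocyst regions went from 15.8% to 39.8% and 54.1%. These others include those of 3 to 5 kb and 730 with 5 kb or more in 1 library. In BL the regions of 3 to 5 kb were at 59.1% and all others at 49.8%, so the broad regions were the most covered of the 3 sets there. In BL, 434 of the 578 (75.1%) were covered over at least 50% of their length in both libraries. This was so for 62.2% of regions of 3 to 5 kb and 44.8% of all others. An H3K27ac peak of 5 kb or more lay over 119 (20.6%) in both libraries, against 1.59% and 1.65%.

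**Figure D4:**
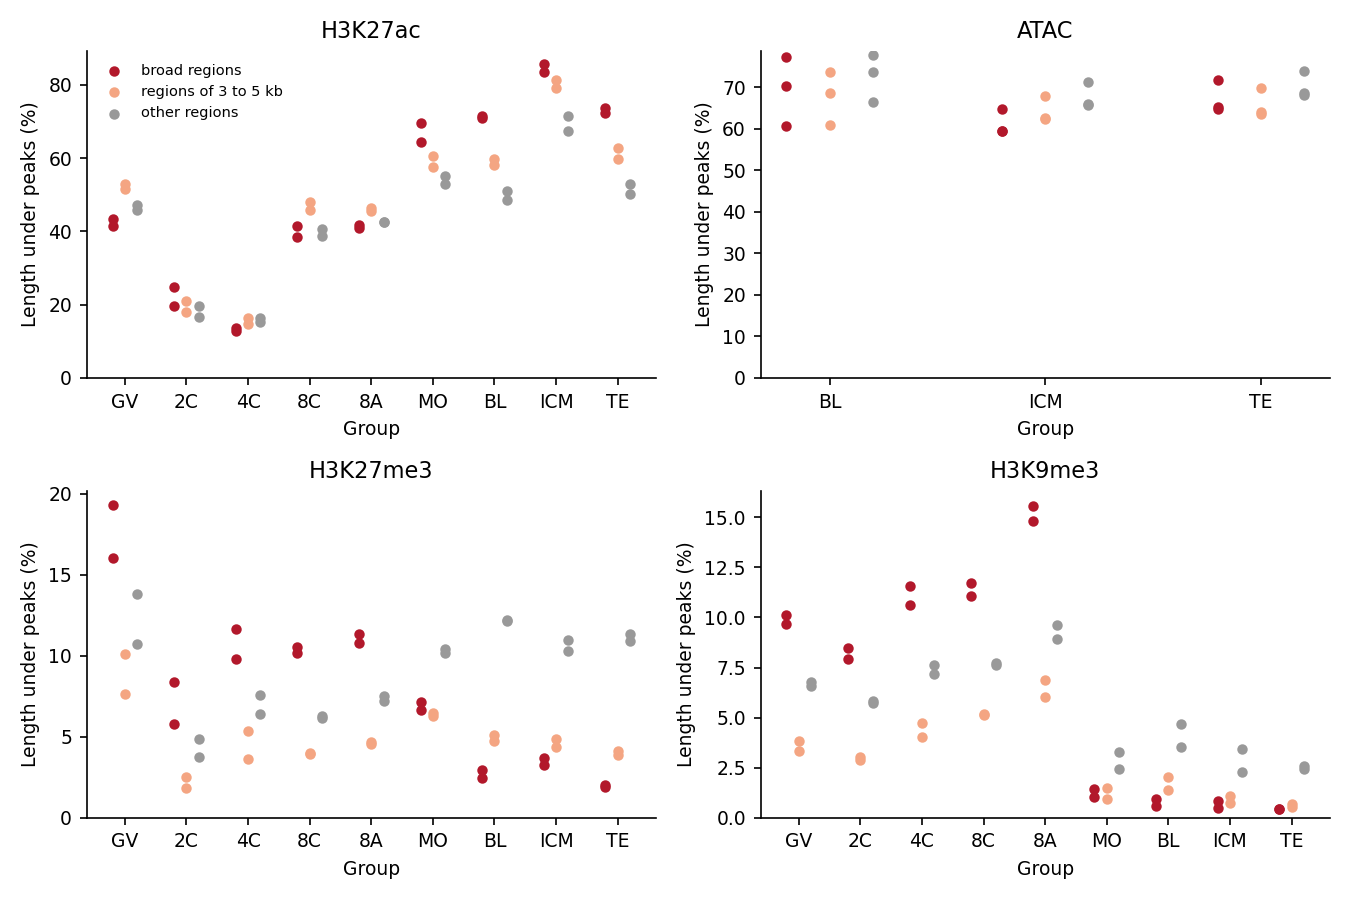
Percentage of summed region length under peaks of each assay, 1 point per library, for the 578 broad regions (red), the 2327 regions of 3 to 5 kb (orange) and all 30987 other regions (grey). H3K27ac rises from 13.4% in 4C to 71.3% in BL at the broad regions. H3K27me3 there is at 17.7% in GV, 7.09% in 2C, 10.7% in 4C and 2.73% in BL.

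From MO to BL few broad regions were called by limma for a change in H3K27ac cover with the lists as deposited. Of 575 tested, limma called 27 higher and 18 lower in BL, where 6.68% and 10.1% of all 22977 tested regions were called. In the same fit 145 broad regions had an unadjusted p under 0.05. All BL values lay above all MO values at 210 and below at 154, against 19.5% and 31.8%. MO lists covered 115.2 and 112.6 Mb and BL lists 49.0 and 55.1 Mb. With lists shortened to one length, 135 of 571 broad regions (23.6%) were higher in BL and 18 (3.15%) lower, against 35.6% and 4.92% of all tested regions. The median moved from 0.03 to 0.30, while that of all tested regions moved from 0 to 0.57. Without the first or the second BL library 13 and 17 broad regions were called, and without the first MO library 78.

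H3K27ac cover was higher in ICM than in TE at most of the regions, at 84.6 ± 1.51% and 73.0 ± 0.893% of the length. Of 576 tested, limma called 114 higher in ICM and 19 higher in TE, where 18.3% and 6.46% of all 24662 tested regions were called. ICM lay above TE in all libraries at 379 and below at 76, against 49.5% and 12.2%. The median difference, TE against ICM, was -0.15 over the broad regions and -0.21 over all. ICM lists covered 98.2 and 91.3 Mb and TE lists 57.5 and 60.3 Mb. With lists shortened to one length, 99 broad regions (17.3%) were called higher in ICM and 51 (8.90%) in TE, against 13% and 18.8% of all tested regions, where the split turned to 2769 and 4006. Without the first ICM library 19 broad regions were called higher in ICM and 15 in TE, and without the second 18 and 13.

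Regions wider in ICM nearly all had more H3K27ac there. Of the 93 whose H3K4me3 widths in ICM all exceeded those in TE, 90 (96.8%) had more H3K27ac in both ICM libraries and 0 in both TE libraries. Of the 295 wider in TE, 71 (24.2%) had more H3K27ac in TE and 128 (43.7%) in ICM. Of the 190 that were neither, 161 (84.7%) had more in ICM. Over all tested regions 49.5% had more in ICM, whose lists were longer, and these were not split by H3K4me3 width. By limma calls, 13 of the 25 regions wider in ICM had more H3K27ac in ICM and 0 in TE. Of the 131 called wider in TE, 13 had more in TE and 2 in ICM. At chr2:104618951-104624350 H3K27ac covered 100% of the region in both ICM libraries and none of it in either TE library. At chr6:45176151-45183650 it covered none of the region in ICM and 90.0% in both TE libraries. The region chr3:16828451-16833850 differed from these, with 98.1% covered in both ICM libraries, where it had no H3K4me3 peak, and 100% in both TE libraries.

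A few broad regions lacked H3K27ac. No blastocyst library had an H3K27ac peak in 3 of the 578. The same held for 96 of the 2327 regions of 3 to 5 kb and 9954 of the 30987 others. At chr25:2619851-2632300, 12450 and 12600 bp wide in BL, H3K27ac covered 69.1% and 73.1% in GV and none in 8C, MO, BL, ICM or TE. Its H3K4me3 was broad in 2C, at 6400 and 5500 bp, and its H3K27me3 cover was 100% in both GV libraries and 81.5% and 92.8% in MO. At chr13:16385701-16391450 H3K27ac covered 86.1% and 80.9% in 8C, none in BL or TE, and 27% and 24.3% in ICM. H3K27me3 there covered 100% and 72.2% in BL, none in ICM, and 54.8% and 72.2% in TE. At the other end, 19 regions were covered by H3K27ac over their whole length in both BL libraries, the widest of them chr25:41459351-41469050.

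Open chromatin was found in every region. An ATAC peak lay in all 578 in each of the 3 BL libraries, and peaks covered 69.3 ± 8.31% of the length (SD, n = 3). Cover was 61.2 ± 3.14% in ICM and 67.1 ± 3.89% in TE. Regions of 3 to 5 kb were at 67.7% in BL and all other regions at 72.7%, so the broad regions did not stand out here. In BL, ATAC peaks were mostly narrower than the H3K4me3 domain. The widest peak per region had a mean library median of 2675 bp, and regions held 2.91 to 3.28 peaks on average. At 13 regions an ATAC peak of 5 kb or more lay in every BL library, and at 98 in some of them only. Of the 578, 317 were covered over at least 50% by both H3K27ac and ATAC in every BL library, and 71 by neither.

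**Figure D5:**
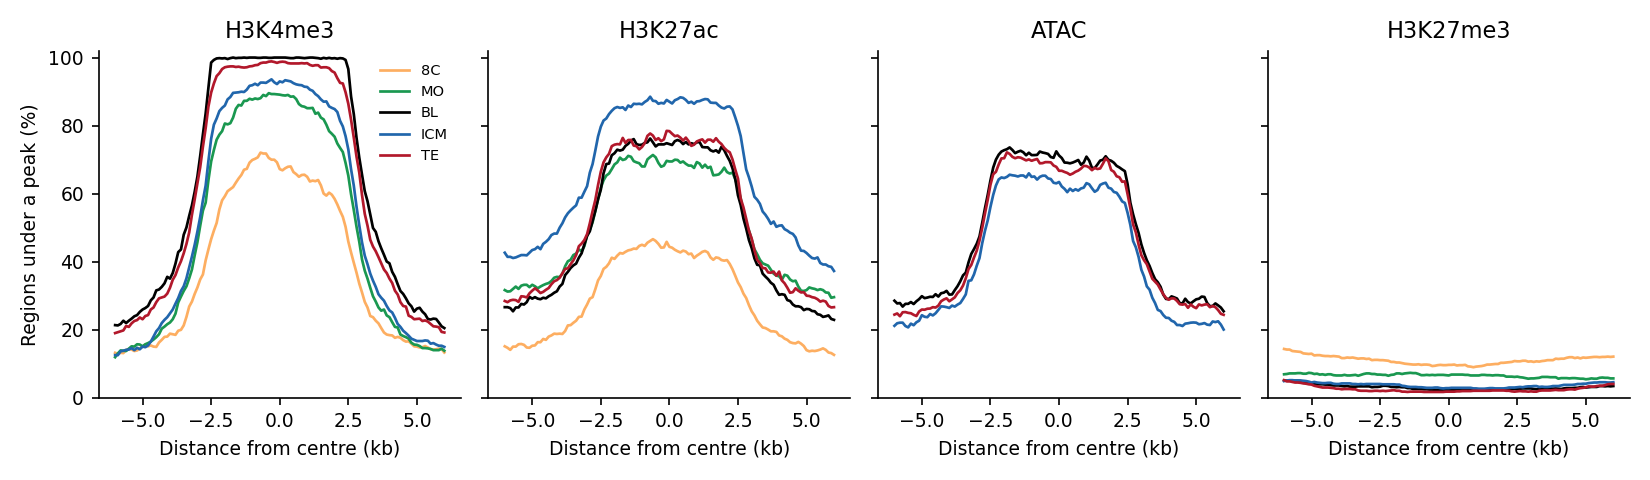
Percentage of the 578 regions under a peak at each distance (kb) from the region's centre, as the mean of the libraries of a group, for 4 assays. In BL, H3K27ac and ATAC stay level across the domain, with 74.6% and 71.2% of regions covered at the centre, and drop beyond the edges of the domain. H3K27me3 stays low throughout.

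ATAC cover was more often higher in TE. Of 578 tested, limma called 60 higher in TE and 6 higher in ICM, where 6.29% and 2.22% of all 28133 tested regions were called. All TE values lay above all ICM values at 156 and below at 42, against 13.4% and 6.71%. The median difference was 0.07 over the broad regions and 0 over all. Leaving out the first or the third ICM library or the first TE library left 39, 37 and 43 calls. Of the 295 regions with wider H3K4me3 in TE, 126 (42.7%) had more ATAC cover in TE and 5 in ICM. Of the 93 wider in ICM, 24 (25.8%) had more in ICM and 3 in TE. At chr23:9442601-9458250 ATAC covered 38%, 49.5% and 37.7% in ICM and 87.9%, 84.0% and 73.2% in TE, a difference of 0.95 (SE 0.14, adjusted p = 0.028).

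H3K27me3 was rare at the broad regions in the blastocyst. It covered 2.73 ± 0.354% of their length in BL (SD, n = 2), against 4.93% of regions of 3 to 5 kb and 12.2% of all other regions. No peak was called in either BL library at 543 of the 578, and 11 were covered over at least 50% in both. Of the 2327 regions of 3 to 5 kb, 2154 had no peak and 98 were covered to that extent. Of the 30987 other regions, 25633 had no peak and 4323 were covered to that extent. A missing peak was thus not particular to the broad regions. Cover of the broad regions had been 17.7 ± 2.33% in GV, 10.3 ± 0.254% in 8C and 6.92 ± 0.342% in MO. In GV the broad regions exceeded all other regions, which were at 12.3%, so their order was reversed by BL. Of the 93 regions covered over at least 50% in GV, 23 were so in MO and 8 in BL, and 74 had no peak in BL. The second widest region, chr17:60085501-60100850, was covered by 100% and 99.7% in GV and by 0% in 8C and BL.

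Between MO and BL, 70 regions had enough H3K27me3 peaks to be tested. Limma called 37 lower and 7 higher in BL, where 11.3% and 24.5% of all 5556 tested regions were called. All BL values lay below all MO values at 50 and above at 8, against 14.4% and 29.3%. The H3K27me3 lists covered 163.1 and 149.4 Mb in MO and 271.2 and 281.5 Mb in BL, so cover fell at these regions while the lists grew. With lists shortened to one length, 43 of 62 broad regions were lower and 4 higher, against 35.7% and 9.77% of all tested regions. Over all tested regions the split turned from 1362 higher and 628 lower to 392 and 1432. In 16 of the 44 calls each group's 2 libraries had identical cover, which leaves limma no spread to measure. Leaving out either MO library left 29 broad regions to test and 9 calls, of which 6 were higher in BL and 3 lower, and leaving out the first or the second BL library left 21 and 22.

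Between ICM and TE, 36 regions could be tested for H3K27me3. Limma called 12 higher in ICM and 7 higher in TE, where 11.8% and 15.5% of all 5316 tested regions were called, and 9 of the 19 calls had identical cover within both groups. ICM lay above TE in both libraries at 22 and below at 8, against 15.5% and 19.3%. Leaving out either ICM library left 5 calls, all higher in TE, and leaving out the first or the second TE library left 12 and 11. Few regions could be compared for both H3K27me3 and H3K4me3 width. Of 22 tested regions with both H3K4me3 widths larger in TE, 18 had more H3K27me3 in ICM and 2 in TE. Of 9 with both larger in ICM, 5 had more H3K27me3 in TE and 1 in ICM. By limma calls, 5 of 10 wider in TE had more H3K27me3 in ICM, and 3 of 4 wider in ICM had more in TE. All tested regions were not split in this way, and a link between the marks was not tested.

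Single regions show how the marks were divided. At chr21:2936351-2941450 H3K4me3 measured 5700 and 5350 bp in ICM and 1550 and 1950 bp in TE. H3K27ac covered 99.0% and 96.1% there in ICM and none in TE, while H3K27me3 covered none in ICM and 100% in both TE libraries. In whole blastocysts the region had 5100 and 5000 bp of H3K4me3 and 100% H3K27me3 cover in both libraries. H3K27ac and H3K27me3 peaks thus lay in different lineages there, while H3K27me3 and a narrower H3K4me3 peak were both called in TE. At chr22:59366151-59372500 H3K27me3 covered 100% in both ICM libraries, where H3K4me3 and ATAC peaks were missing. TE had no H3K27me3 there and 4400 and 3550 bp of H3K4me3.

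Other regions carried both marks within a lineage. At chr27:25690201-25695800 H3K4me3 measured 5600 and 5700 bp in ICM and 5900 and 5850 bp in TE, and H3K27me3 covered 100% in every MO, BL, ICM and TE library. H3K27ac covered 99.1% and 96.4% of it in 8C, and 0% and 7.1% in BL. At chr14:12654551-12659800 H3K27me3 covered 100% in both BL and both ICM libraries and none in TE or MO. Its H3K4me3 measured 5000 and 4800 bp in ICM and 6350 and 5150 bp in TE. The region chr16:821951-829800 was covered by 100% by H3K27me3 and H3K9me3 in every library of all 9 groups, and by 100% by ATAC in all 9 ATAC libraries. H3K27ac covered 90.4% and 96.2% of it in BL. Every assay thus had peaks there in all its groups, so the overlap of marks was not particular to a stage or lineage. Of the 11 regions with at least 50% H3K27me3 cover in BL, 3 had as much H3K27ac cover and all 11 as much ATAC cover.

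H3K9me3 was low at the regions from the morula on. It covered 9.92 ± 0.32% of their length in GV, 11.4 ± 0.451% in 8C and 15.2 ± 0.529% in 8A (SD, n = 2). Cover was 1.25 ± 0.28% in MO and 0.747 ± 0.247% in BL. The fall was general to the H3K4me3 regions. Those of 3 to 5 kb went from 5.14% in 8C and 6.45% in 8A to 1.22% in MO. All other regions went from 7.67% and 9.28% to 2.86%. Of 59 regions covered over at least 50% in 8A, 1 was so in MO and 56 had no peak there. Between ICM and TE, 3 regions could be tested, with 0 called by limma and 0 at an unadjusted p under 0.05, where 17.3% and 26.4% of all 1573 tested regions were called higher and lower in TE. Both TE libraries lay above both ICM libraries at 0 of the 3 and below them at 1, against 21.6% and 29.2% of all tested regions.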

How the data were processed

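CUT&Tag and ATAC-seq peak lists of 81 libraries were used, 1 list per library, so peaks had been called per library by the authors. Reads had been trimmed and aligned to ARS-UCD1.2 with tools that the submitters' processing notes list as SICER, SAMtools 1.9, Picard 2.26.10, BWA 0.7.9a, cutadapt 1.8.3 and Trim Galore 0.4.0. The lists are named for epic2, and the settings of the peak caller were not stated. The deposited score of a peak is a whole number of unstated meaning, used only to rank peaks when lists were shortened. Deposited peak edges lie on a 50 bp grid, or 200 bp for H3K27me3 and H3K9me3, so widths are not compared between these assays. Width was end minus start plus 1.

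Each blastocyst H3K4me3 region was measured in every library as its widest overlapping peak (H3K4me3) or its bases under peaks (other assays). Differences were tested on log2(bp + 200) with limma 3.58.1 in R 4.3.3 (trend and robust), with Benjamini-Hochberg adjustment over all regions with a peak in at least 2 libraries, for 9 comparisons. The tests were checked on simulated data. With 2 libraries against 2, an exact permutation test cannot go below p = 0.333, and with 3 against 3 not below 0.1. Other values used Python 3.11.15, NumPy 2.4.6 and pandas 2.3.3. Alternatives were pseudocounts of 50 and 1000 bp, no filter, shortened lists, joined peaks, other limits, a replicate block, all groups in one fit and leaving out each library.

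Named regions were the 10 widest, those broad longest, those with the most and with no H3K27ac, and those with the most H3K27me3. They also included the 5 most unequal in each lineage, taken only from regions whose ICM and TE widths did not overlap. The rest were those broad in 8C and not in 8A that lost most width in 8A, and those next to the limit. The regions and lists were chosen with earlier results of these data known. Gene and marker lists were not used, since no annotation of this build was at hand.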

Additional observations from a re-analysis of the deposited data

Results flagged for a closer look

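The regions were taken from the autosomes. Applied to chromosome X, the same rule found 10 blastocyst H3K4me3 peaks of 5 kb or more in both libraries, against 7 in MO, 7 in ICM, 8 in TE and 2 in GV. These peaks entered none of the comparisons.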

How the results depend on the processing

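The number of regions was set by the limit and by how peaks were joined. It was 1409 at 4 kb, 291 at 6 kb, 27 at 10 kb and 1587 when peaks under 1 kb apart were joined, and 576 to 784 in the other planned settings. With width as end minus start, an alternative chosen after seeing the data, it was 552.

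Joining peaks moved the early groups most. With peaks under 1 kb apart joined, 105 regions were broad in GV, 148 in 2C, 143 in 4C, 175 in 8C and 96 in 8A. With peaks under 3 kb apart joined, 219 were broad in GV, 255 in 2C, 238 in 4C, 244 in 8C, 172 in 8A, 395 in MO and 453 in ICM. With a limit of 3 kb outside the blastocyst, 36 were broad in GV, 88 in 2C, 85 in 4C, 220 in 8C, 42 in 8A, 455 in MO and 486 in ICM. With at least 50% of a region under peaks of 5 kb, 2 were broad in GV. From 1 library alone, 7 to 19 were broad in GV, 31 to 34 in 2C, 25 to 30 in 4C, 76 to 128 in 8C and 6 to 22 in 8A.

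Counts of regions covered in BL moved with the share required. At 80% of the length, 214 had H3K27ac and 83 had ATAC. With any base covered, 22 had H3K27me3 and 5 had H3K9me3, and with shortened lists 4 had H3K27me3. From 1 library alone, 2 to 4 had H3K9me3.

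Replicate numbers pair libraries across groups by number only, and the deviations of same-numbered libraries correlated between -0.0493 and 0.0444. With the replicate number as a block, 98 regions were called for H3K4me3 in TE against ICM, 97 in MO against 8C, 40 for H3K27ac and 31 for ATAC in TE against ICM, 13 for H3K27ac and 29 for H3K27me3 in BL against MO. The block moved the other counts by no more than 1.5 times, with 0 for 8A against 8C.

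With all groups in one fit, 235 regions were called in MO against 8C, 362 in 8A against 8C, 84 for H3K27ac and 1 for H3K9me3 in TE against ICM. For 8A against 8C, 192 were called without a filter and 49 on bases under peaks. With shortened lists, 153 were called for H3K27ac in BL against MO and 1 for H3K9me3. Leaving out 1 library gave 0 calls in each fit for H3K4me3 in TE against ICM, 0 to 118 in MO against 8C, 31 to 140 for H3K27ac, 37 to 60 for ATAC, 5 to 12 for H3K27me3 and 0 to 1 for H3K9me3 in TE against ICM, 13 to 78 for H3K27ac and 9 to 22 for H3K27me3 in BL against MO. These fits rest on a lone library in 1 group, assumed to vary like the other, so fewer calls are built in. The other causes were not tested. No filter could not be fitted for H3K27me3 and H3K9me3 (3 fits). No named region changed direction past the threshold.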
